A study of Homo sapiens with 12 samples.

Results

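Across 12 libraries of LNCaP prostate cancer cells, the target genes of the transcription factor ATF4 and the enzymes of serine synthesis were mostly lower in irradiated than in non-irradiated cells and, in most library pairs, lower when the arginine methyltransferase PRMT5 was knocked down. The genes were 33 of the 63299 listed in the count tables, chosen by name: ATF4, DDIT3 (CHOP) and their known targets, with the serine and one-carbon enzymes and without amino acid transporters and tRNA ligases. All 33 were present once in each table, and all 33 passed the filter on low counts. By role they were 8 transcription factors, 7 stress effectors and feedback regulators, 3 serine synthesis enzymes, 4 mitochondrial one-carbon enzymes, 7 other enzymes of amino acid and carbon metabolism, and 4 secreted, surface and transport proteins.

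The cells were LNCaP-shPRMT5, a luminal prostate cancer line that carries a short hairpin RNA against PRMT5 under doxycycline control. The 4 groups of 3 libraries were irradiated knockdown (doxycycline and 2 Gy), irradiated control (no doxycycline, 2 Gy), non-irradiated knockdown (doxycycline, 0 Gy) and non-irradiated control (no doxycycline, 0 Gy). Doxycycline was given at 1 µg/mL every 48 h, and irradiated cells were harvested 24 h after the dose. Control cells carry the same hairpin without doxycycline, so the effects of the hairpin and of doxycycline itself cannot be told apart. The irradiated and the non-irradiated libraries stand in separate deposited tables, so irradiation and whatever else sets these tables apart cannot be told apart. The labels give neither separate cultures nor clones behind the replicates, so p-values measure the spread between these libraries, which may be technical.

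When amino acids run short or proteins misfold, stress kinases phosphorylate the translation factor eIF2. General protein synthesis then slows, while the messenger RNA of ATF4 is translated more. ATF4 pairs with C/EBP proteins on DNA and raises genes that make and import amino acids, with DDIT3, ATF3 and TRIB3 among its targets, the last of which feeds back on ATF4. PHGDH, PSAT1 and PSPH make serine from a glycolytic intermediate, and SHMT2, MTHFD2, MTHFD1L and ALDH1L2 carry the one-carbon unit of serine through mitochondrial folate. Much of the control of ATF4 is at translation, which RNA counts do not measure.

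Total counts ran from 14801939 to 33158865 per library. The level of PRMT5 was 31.3, 26.9 and 24.9 CPM (TMM-scaled counts relative to library size) in the irradiated knockdowns, against 230.4, 187 and 187 CPM in the irradiated controls. Without irradiation it was 26.6, 30.8 and 32.8 CPM in the knockdowns, against 186, 190.4 and 198 CPM in the controls. All 6 knockdown libraries were below all 6 controls. The 10 luminal prostate markers summed to between 7049 and 10570.3 CPM in every library. Markers of other cell types summed to at most 10.7 CPM for 6 basal, 27.8 CPM for 8 fibroblast, 95.9 CPM for 8 neuroendocrine and 259 CPM for 8 leukocyte genes. Of the leukocyte markers 7 were below 1 CPM in every library, and LCP1 held nearly all of that sum. ENO2 held most of the neuroendocrine sum, at up to 93.1 CPM. The basal marker KRT5 was at 5.09 CPM in non-irradiated control replicate 1 and 8.44 CPM in non-irradiated knockdown replicate 1. In every other library KRT5 was at most 0.045 CPM.

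One library stood apart in this pathway, and replicate 1 of both irradiated groups stood apart over all genes. Over all genes with counts, irradiated control replicate 1 differed from replicates 2 and 3 of its group by a chi-square per gene of 129 and 105. Between irradiated knockdown replicates 2 and 3 it was 8.96. Irradiated knockdown replicate 1 differed from replicates 2 and 3 of its own group by 74.5 and 56.2. Irradiated control replicate 1 was the lowest of all 12 libraries for 21 of the 33 genes and the highest for 0. Of all genes tested it was the lowest for 20.8% and the highest for 20.7%. For 30 of the 33 it lay below both other irradiated controls. Irradiated control replicates 2 and 3 both lay above all 3 irradiated knockdowns for 29 of the 33. This count sets replicate 1 aside after it was seen to be low. No share over all genes was computed for it or for the 30. With all 3 controls, 2 of the 33 were lower in the knockdowns without overlap, against 7.72% of all genes. Calls of the knockdown after irradiation are also given without irradiated control replicate 1, because it stood apart. In single libraries the 33 genes held 0.375%, 0.386% and 0.388% of all counts in the irradiated knockdowns, against 0.317%, 0.685% and 0.715% in the irradiated controls. The shares were 0.891%, 0.591% and 0.656% in the non-irradiated knockdowns, against 0.954%, 0.990% and 0.977% in the non-irradiated controls.

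**Figure D1:**
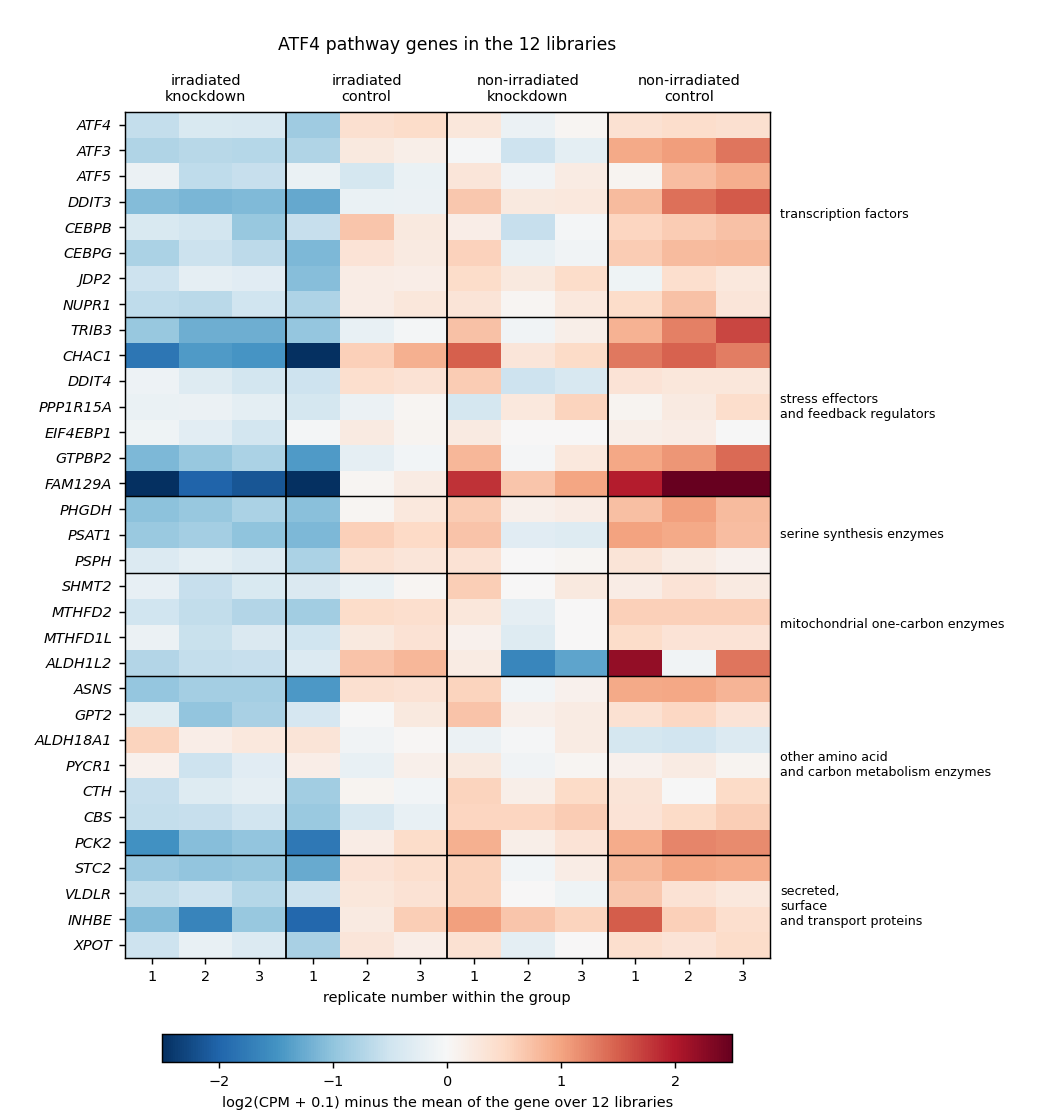
Level of each of the 33 genes (rows, grouped by role) in each of the 12 libraries (columns), as log2(CPM + 0.1) minus the mean of the gene over the 12 libraries, with red above and blue below that mean. Irradiated control replicate 1 looks like the irradiated knockdowns and not like the other irradiated controls.

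Per length of transcript and averaged over the 12 libraries, ATF4 itself was the most abundant of the 33, at 298 CPM per kb. PSAT1 followed at 289 CPM per kb and DDIT4, a brake on mTORC1, at 148 CPM per kb. PHGDH stood at 92.7 CPM per kb, and PSPH, the last enzyme of serine synthesis, stood at 39.9 CPM per kb. At the low end were FAM129A (2.90 CPM per kb), VLDLR (2.10 CPM per kb), PPP1R15A (1.60 CPM per kb), INHBE (0.191 CPM per kb) and ALDH1L2 (0.0543 CPM per kb). ALDH1L2 and INHBE had at most 29 and 23 reads in any library, so their fold changes are imprecise. These lengths are of all merged exons of a gene, which for PHGDH is 5622 bases.

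The core of the C/EBP-ATF response element, to which ATF4 binds, was searched for in the promoters that could be looked up. RefSeq promoters of GRCh38.p14, from 250 bases before to 50 after a transcript start, were found for 25 of the 33 genes, as 43 windows. The motif searched was TGATGNAA on both strands. It was present for 6 of the 25 genes (24%), against 4.46% of 27305 genes with a promoter in the table, and in 8 of the 43 windows (18.6%), against 3.62% of 35116. The genes had been chosen as known ATF4 targets, so this is a description of the choice. The 30-base windows around each match are shown because they hold the motif in the genes that have it, 5′ to 3′ on the strand of the match, with the matched letters in capitals.
ASNS: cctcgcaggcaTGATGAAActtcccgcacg
CEBPG: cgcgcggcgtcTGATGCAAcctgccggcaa
CHAC1: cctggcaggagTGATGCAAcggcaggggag
JDP2: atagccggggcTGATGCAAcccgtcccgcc
MTHFD1L: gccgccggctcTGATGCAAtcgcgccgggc
ATF3: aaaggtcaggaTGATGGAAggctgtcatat

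The letter left free in the motif was C in CEBPG, CHAC1, JDP2 and MTHFD1L, A in ASNS and G in ATF3. The windows lie at chr7:97872458-97872487 for ASNS (minus strand), chr19:33374060-33374089 for CEBPG, chr15:40953251-40953280 for CHAC1, chr14:75427995-75428024 for JDP2, chr6:150866346-150866375 for MTHFD1L and chr1:212565205-212565234 for ATF3. The 5 last genes lie on the plus strand, and only the match of CHAC1 runs against its gene. The match began 68 bases before the start in ASNS, 42 in CEBPG, 209 in CHAC1, 16 in JDP2, 129 in MTHFD1L and 191 in ATF3. A related core, that of the cyclic AMP response element (TGACGTNA), was present for ALDH18A1 and PPP1R15A, 2 of the 25 genes (8%), against 3.63% of all genes. No match says only that these letters are not in this window.

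The genes were lower in the knockdown, by their median, in 5 of the 6 library pairs, and most clearly in pairs 2 and 3 of both irradiation states. Pairs are the knockdown and the control of the same replicate number within a table, whose deviations from their group means went together over all genes tested. The 33 genes did not share this. Their mean log2 deviation from the gene mean was -0.70, -0.70 and -0.68 in irradiated knockdowns 1, 2 and 3, against -0.96, 0.17 and 0.24 in the controls. Without irradiation it was 0.51, -0.05 and 0.13 in the knockdowns, against 0.64, 0.67 and 0.73 in the controls. After irradiation the median difference over the 33 genes was 0.29 on the log2 scale in pair 1, -0.86 in pair 2 and -0.87 in pair 3. The knockdown library was the lower one for 5 of the 33 genes in pair 1, 31 in pair 2 and 32 in pair 3. Without irradiation the medians were -0.12, -0.80 and -0.58 in pairs 1, 2 and 3, with 21, 28 and 25 genes lower in the knockdown. Pair 1 thus stood apart in both tables, through a low control after irradiation and a high knockdown without it: non-irradiated knockdown replicate 1 lay above both other libraries of its group for 29 of the 33 genes. Of the 33 genes, 25 were lower in the knockdown in pairs 2 and 3 of both states and 1, ALDH18A1, was higher in all of these. Over all 6 pairs 3 genes were lower throughout and ALDH18A1 was higher throughout. For these counts within pairs and replicates, no share over all genes was computed. Fewer cells with the transcript and less transcript per cell cannot be told apart in such bulk libraries.

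**Figure D2:**
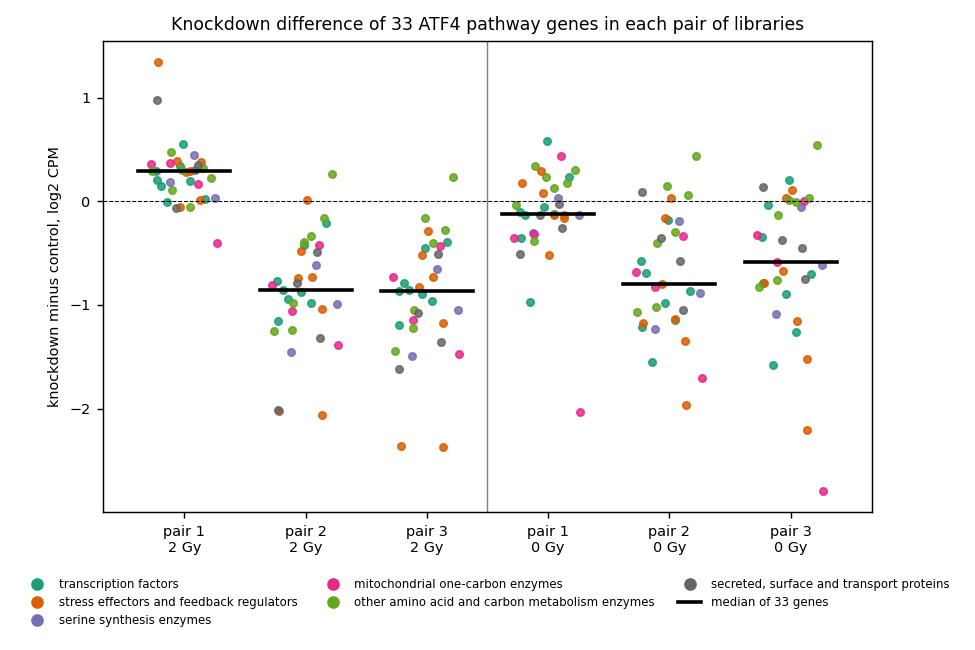
Difference in log2 CPM (knockdown minus control) of each of the 33 genes in each pair of libraries, irradiated (2 Gy) left and non-irradiated (0 Gy) right, with dots coloured by role and bars at the median of the 33. Pair 1 lies at 0.29 after irradiation and at -0.12 without, while the other medians lie between -0.87 and -0.58.

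Across groups, few of these differences passed a test over all genes. A gene was called where edgeR's quasi-likelihood test gave an adjusted p (Benjamini-Hochberg, over the 17191 genes tested) under 0.05. After irradiation the median log2 fold change over the 33 genes was -0.61, against -0.0052 over all genes, and 32 of the 33 were negative. None was called (0 of 33; 0.297% of all genes were called in either direction, 0.291% lower and 0.00582% higher). At an unadjusted p under 0.05, 17 of the 33 were lower and 0 higher, against 997 lower and 598 higher of all 17191 genes. DESeq2 also called 0 of the 33, and 250 of all genes. Without irradiation the median was -0.44, against 0.0045 over all genes, and 28 of the 33 were negative. That median was -0.29 without non-irradiated knockdown replicate 2. With all libraries and without irradiation, 7 of the 33 were lower and 1 higher at an unadjusted p under 0.05. Of all 17191 genes 1689 were lower and 1310 higher. There 1 gene, ATF3, was called lower (1.2% of all genes were called lower, and 1.54% in either direction). The groups did not overlap for 15 genes that were lower and 1 that was higher in the non-irradiated knockdowns (15.8% and 15.4% of all genes, 31.1% in either direction). After irradiation 2 genes were lower without overlap, and 0 higher (7.72% and 5.82% of all genes, 13.5% in either direction).

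Leaving out irradiated control replicate 1 changed the irradiated result. That library is of interest because it was low for these genes, so leaving it out makes the fold changes more negative by construction. The calls and adjusted p-values without it, alone or with its pair, are therefore a description and not a test of the knockdown. This holds here and wherever they are given for single genes below. The median became -0.88 and 16 of the 33 genes were called lower, with 1.21% of all 17666 genes then tested called lower and 1.44% in either direction. The 16 were ATF4, ATF3, DDIT3, CEBPB, CEBPG, NUPR1, CHAC1, FAM129A, PHGDH, PSAT1, PSPH, MTHFD2, ASNS, PCK2, STC2 and VLDLR. Without both libraries of irradiated pair 1 the median was -0.89 and 15 genes were called lower (1.5% of all genes lower, 1.87% in either direction); 12 genes were called in both of these fits. Without pair 2 or pair 3, 0 genes were called (0.0114% and 0.00565% of all genes). Without irradiation, 2 genes, ATF3 and TRIB3, were called lower when pair 1 was left out (0.717% of all genes lower, 1.12% in either direction) and 0 when pair 2 or pair 3 was (0.0398% and 0.00569%). Each of the other 5 irradiated libraries could be left out with 0 of the 33 called, but few of all genes were called then either. Of 17677 to 17732 genes tested, 40, 7 and 4 were called without irradiated knockdown replicate 1, 2 and 3. Without irradiated control replicate 2 and 3 it was 18 and 19. Leaving out pairs, and singling out this library, were chosen after the libraries had been compared.

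With the replicate number as a block, which the pairing over all genes within tables allows, 3 genes were called after irradiation. EIF4EBP1 and VLDLR were lower and ALDH18A1 was higher (with the block 11.5% of all genes were called, 6.05% lower and 5.43% higher). Without irradiation 3 were called with the block, ATF3 and ALDH1L2 lower and ALDH18A1 higher (27.8% of all genes, 14.1% lower and 13.7% higher).

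**Figure D3:**
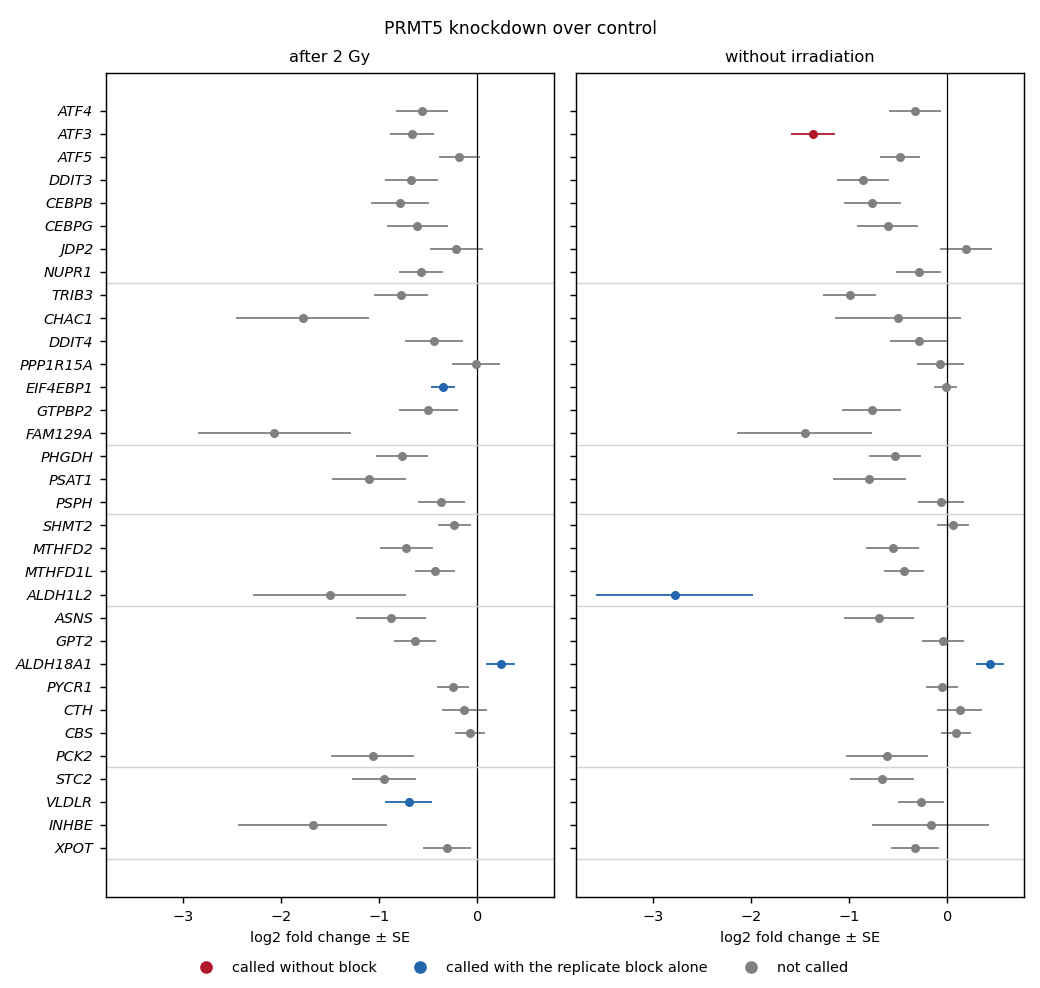
Log2 fold change of PRMT5 knockdown over control for each of the 33 genes, with its standard error, after 2 Gy (left) and without irradiation (right); red dots passed the test without a block, blue dots with the replicate block alone. All but ALDH18A1 lie below 0 after irradiation, and ATF3 is the red dot without it.

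The transcription factors had a median log2 fold change of -0.59 for the knockdown after irradiation and -0.54 without. Their 8 members were all lower after irradiation and 7 of 8 were lower without. ATF4, the master regulator, stood at 475, 549.5 and 539 CPM in the irradiated knockdowns, against 388, 939 and 985 CPM in the irradiated controls. Without irradiation it had 869, 649 and 745 CPM in the knockdowns, against 933, 966 and 945 CPM in the controls. Non-irradiated knockdowns were all below their controls, whereas irradiated control replicate 1 was the lowest library of all and made the irradiated groups overlap. The log2 fold change of ATF4 was -0.56 (SE 0.27, adjusted p = 0.559) after irradiation and -0.33 (SE 0.27, adjusted p = 0.565) without, neither of which passed. Without irradiated control replicate 1, ATF4 stood at -0.88 after irradiation (SE 0.13, adjusted p = 0.00558 in edgeR; 0.00558 to 1 over 17 alternatives). Of its 50-base words 17.9% are also found in other genes, mainly ATF4 pseudogenes.

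ATF3, an early stress-induced repressor, had 28.3, 29.5 and 29.3 CPM in the irradiated knockdowns, against 28.4, 56.8 and 53.0 CPM in the irradiated controls. Without irradiation the knockdowns had 46.9, 33.6 and 40.7 CPM, against 92.2, 98.5 and 122 CPM in the controls. Non-irradiated controls were far above every other library, and no knockdown overlapped them. ATF3 fell by 1.37 on the log2 scale in the non-irradiated knockdowns (SE 0.23, adjusted p = 0.0142), in 3 of 3 pairs, and the call held with the block (adjusted p = 0.00986). The adjusted p ran from 3.18e-06 to 0.272 over 17 alternatives, and the call was lost when replicate 2 or 3 of either non-irradiated group was left out. After irradiation the value was -0.67 (SE 0.22, adjusted p = 0.357), and -0.92 (SE 0.15, adjusted p = 0.00981; 0.00981 to 1 over 17 alternatives) without irradiated control replicate 1.

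DDIT3, which as CHOP drives the later and more toxic arm of the response, was measured at 27.3, 26.2 and 26.7 CPM in the irradiated knockdowns, against 23.9, 51.7 and 52.1 CPM in the irradiated controls. Without irradiation it was at 92.7, 68.1 and 69.5 CPM in the knockdowns, against 101, 150.4 and 167 CPM in the controls. All non-irradiated knockdowns lay below their controls, and after irradiation 2 controls lay above and 1 below the knockdowns. The log2 fold changes were -0.67 (SE 0.27, adjusted p = 0.464) after irradiation and -0.86 (SE 0.27, adjusted p = 0.125) without. With irradiated control replicate 1 left out, the first became -0.95 and was called (adjusted p = 0.0301; 0.0301 to 1 over 17 alternatives). Of the exon bases of DDIT3 28.04% overlap MARS on the other strand, and the strand setting of the counting is not given in the sources used here.

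ATF5, another stress-induced factor of the same family, had 40.7, 28.9 and 30.3 CPM in the irradiated knockdowns, against 40.0, 33.3 and 40.0 CPM in the irradiated controls. Without irradiation there were 55.3, 42.2 and 51.7 CPM in the knockdowns, against 47.0, 77.0 and 84.3 CPM in the controls. Both pairs of groups overlapped, and irradiated control replicate 1 was here among the high libraries of its group. For ATF5 the log2 fold changes were -0.18 (SE 0.21, adjusted p = 0.869) and -0.48 (SE 0.21, adjusted p = 0.259) after and without irradiation. Exons of ATF5 overlap NUP62 and IL4I1 on the other strand for 21.2% of bases. The remaining factors had log2 fold changes after irradiation of -0.79 for CEBPB, -0.61 for CEBPG (both dimer partners of ATF4), -0.57 for NUPR1 (a stress-induced chromatin protein) and -0.21 for JDP2 (a repressor of AP-1). With irradiated control replicate 1 left out these were -1.06, -0.95, -0.84 and -0.52, the first 3 of them called (adjusted p = 0.0409, 0.0306 and 0.00981). Without irradiation the same genes had -0.77, -0.61, -0.29 and 0.19, and none passed with all libraries in either state.

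**Figure D4:**
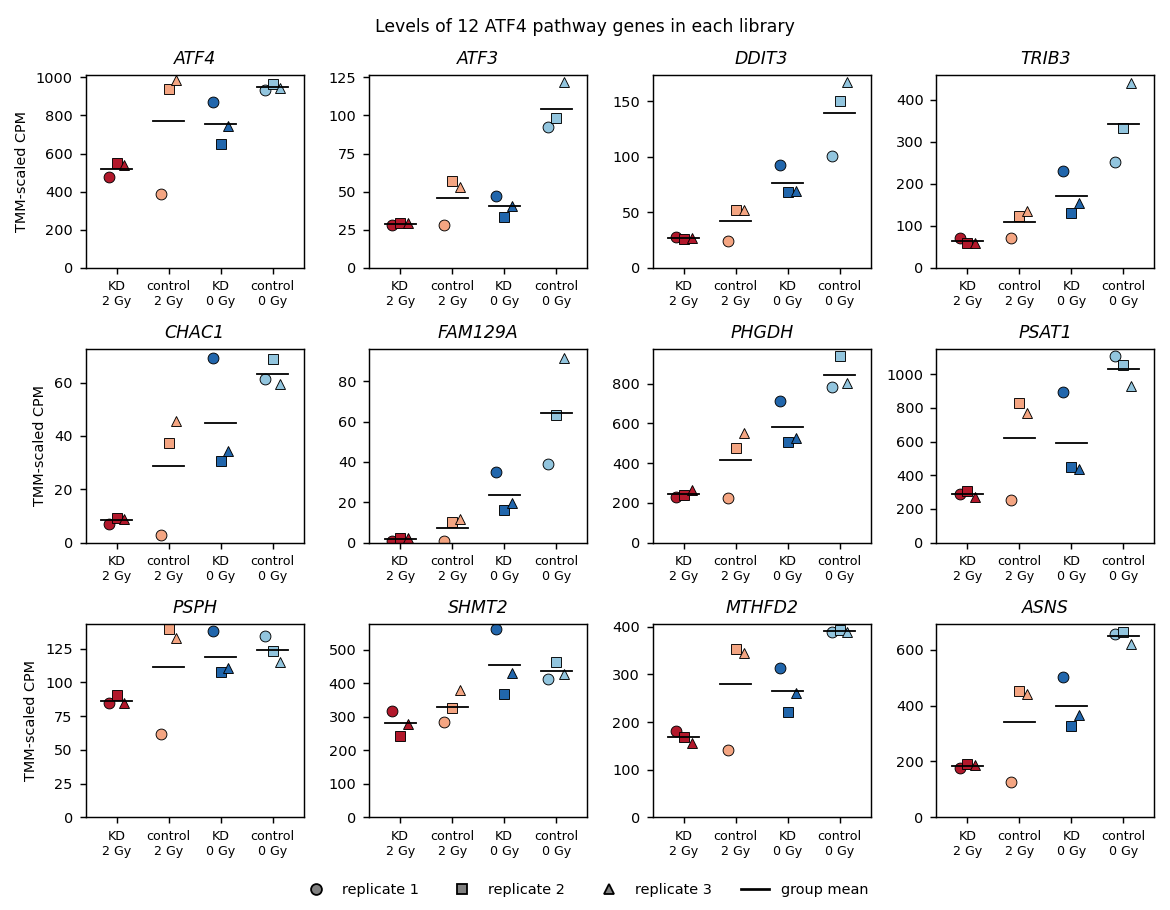
TMM-scaled CPM of 12 of the genes in each library, with replicates 1, 2 and 3 of a group as circles, squares and triangles and the group mean as a bar; all axes start at 0. In most panels the 3 irradiated knockdowns lie close together and the irradiated control circle lies among or below them, as for ATF4 at 388 CPM.

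Stress effectors and feedback regulators had medians of -0.50 for the knockdown in both states, and all 7 were negative in both. TRIB3, a pseudokinase that binds ATF4 and AKT, had 71.9, 59.4 and 59.6 CPM in the irradiated knockdowns, against 71.1, 122 and 134 CPM in the irradiated controls. Without irradiation it had 230.3, 131 and 154 CPM in the knockdowns, against 253, 334 and 441 CPM in the controls. The non-irradiated groups did not overlap, while irradiated control replicate 1 lay within the irradiated knockdowns. TRIB3 stood at -0.78 (SE 0.27, adjusted p = 0.380) after irradiation and at -0.998 (SE 0.27, adjusted p = 0.0895) without on the log2 scale, with no call. The first was -1.01 (adjusted p = 0.0744) with irradiated control replicate 1 left out.

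CHAC1, an enzyme that breaks down glutathione, was at 6.99, 9.14 and 8.81 CPM in the irradiated knockdowns, against 2.71, 37.5 and 45.5 CPM in the irradiated controls. Without irradiation its levels were 69.2, 30.6 and 34.4 CPM in the knockdowns, against 61.3, 68.9 and 59.6 CPM in the controls. Its irradiated controls spanned the widest range of the groups, from below to well above the knockdowns, and non-irradiated knockdown replicate 1 was level with the highest control. The log2 fold changes of CHAC1 were -1.78 (SE 0.68, adjusted p = 0.427) after irradiation and -0.50 (SE 0.64, adjusted p = 0.737) without. With irradiated control replicate 1 left out, the first was -2.32 (adjusted p = 0.00432; 0.00432 to 1 over 17 alternatives).

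FAM129A (NIBAN1), a stress-induced protein, reached 0.768, 2.39 and 2.16 CPM in the irradiated knockdowns, against 0.573, 10.2 and 11.5 CPM in the irradiated controls. Without irradiation it reached 34.9, 16.1 and 19.7 CPM in the knockdowns, against 39.0, 63.1 and 91.3 CPM in the controls. It was high in the non-irradiated libraries and at most 2.39 CPM in 4 of the irradiated ones, among them control replicate 1. Knockdown gave -2.07 (SE 0.78, adjusted p = 0.425) after irradiation and -1.46 (SE 0.69, adjusted p = 0.302) without, and neither passed although the non-irradiated groups did not overlap. The first was -2.61 (SE 0.51, adjusted p = 0.0460) with irradiated control replicate 1 left out, and -2.25 (adjusted p = 0.118) without pair 1.

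GTPBP2, a GTP-binding protein of ribosome rescue, had 22.4, 25.2 and 28.2 CPM in the irradiated knockdowns, against 18.4, 41.7 and 46.8 CPM in the irradiated controls. Without irradiation it had 87.2, 47.8 and 58.9 CPM in the knockdowns, against 95.4, 105 and 131 CPM in the controls. The non-irradiated groups were separate and the irradiated ones were not. Its log2 fold changes were -0.50 (SE 0.31, adjusted p = 0.668) after irradiation, where -0.81 (adjusted p = 0.0931) was found with irradiated control replicate 1 left out, and -0.77 (SE 0.30, adjusted p = 0.213) without.

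EIF4EBP1, the inhibitor of the cap-binding factor eIF4E, had 83.9, 75.4 and 65.9 CPM in the irradiated knockdowns, against 87.3, 105 and 94.7 CPM in the irradiated controls. Without irradiation it had 105, 91.0 and 91.3 CPM in the knockdowns, against 99.6, 102 and 89.4 CPM in the controls. The irradiated knockdowns were all below their controls, here with replicate 1 of the controls included, whereas the non-irradiated groups were interleaved. EIF4EBP1 had -0.35 (SE 0.12, adjusted p = 0.371) after irradiation, and with the block it fell by 0.35 (SE 0.089, adjusted p = 0.0273 in edgeR; 0.0273 to 1 over 17 alternatives). DDIT4 had -0.44 after irradiation and -0.29 without, and PPP1R15A, which directs the eIF2 phosphatase, had -0.010 and -0.071. An antisense gene overlaps 41.2% of the exon bases of DDIT4.

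The 3 serine synthesis enzymes were lower in the knockdown means of both states, with medians of -0.77 after irradiation and -0.53 without; none of the 3 was called. In pairs 2 and 3 all 3 were lower in the knockdown of both tables. PHGDH, which commits the glycolytic intermediate 3-phosphoglycerate to serine, had 229, 239 and 267 CPM in the irradiated knockdowns, against 224, 475 and 552 CPM in the irradiated controls. Without irradiation PHGDH had 713, 505 and 525 CPM in the knockdowns, against 783, 937 and 803 CPM in the controls. Non-irradiated knockdowns all lay below the controls, and irradiated control replicate 1 was below every irradiated knockdown. The log2 fold changes of PHGDH were -0.77 (SE 0.27, adjusted p = 0.375) after irradiation and -0.53 (SE 0.26, adjusted p = 0.327) without. Without irradiated control replicate 1 the first was -1.07 (SE 0.16, adjusted p = 0.00541; 0.00541 to 1 over 17 alternatives).

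PSAT1, the aminotransferase of the second step, was at 288, 304 and 273 CPM in the irradiated knockdowns, against 253, 832 and 770.3 CPM in the irradiated controls. Without irradiation it was at 895, 450.4 and 437 CPM in the knockdowns, against 1106, 1055 and 931 CPM in the controls. Knockdown replicates 2 and 3 without irradiation had less than the lowest control, and replicate 1 lay just under it. PSAT1 gave -1.10 (SE 0.38, adjusted p = 0.371) after irradiation and -0.80 (SE 0.38, adjusted p = 0.302) without. Once irradiated control replicate 1 was left out, PSAT1 gave -1.47 (SE 0.25, adjusted p = 0.0146; 0.0146 to 1 over 17 alternatives), but it missed the threshold when both libraries of pair 1 were left out.

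PSPH, the phosphatase that releases serine, had 84.3, 90.9 and 84.3 CPM in the irradiated knockdowns, against 61.8, 139 and 133 CPM in the irradiated controls. Without irradiation PSPH had 138, 108 and 111 CPM in the knockdowns, against 135, 123 and 115 CPM in the controls. The non-irradiated groups were mixed, and of the irradiated controls 2 lay above and 1 below the knockdowns. Its log2 fold changes were -0.36 (SE 0.24, adjusted p = 0.695) after irradiation and -0.065 (SE 0.24, adjusted p = 0.923) without, the smaller of which turned sign (0.00059) when non-irradiated knockdown replicate 2 was left out. Without irradiated control replicate 1 the value after irradiation was -0.65 (SE 0.12, adjusted p = 0.0201; 0.0201 to 1 over 17 alternatives).

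Among the mitochondrial one-carbon enzymes the medians were -0.58 after irradiation and -0.50 without, with 4 of 4 and 3 of 4 negative. SHMT2, which splits serine into glycine and a one-carbon unit, had 317, 243 and 279.7 CPM in the irradiated knockdowns, against 283, 326 and 378 CPM in the irradiated controls. Without irradiation SHMT2 had 561, 369 and 431 CPM in the knockdowns, against 414, 464 and 429 CPM in the controls. Both pairs of groups overlapped, with non-irradiated knockdown replicate 1 the highest of all libraries. The log2 fold changes of SHMT2 were -0.23 (SE 0.17, adjusted p = 0.730) after irradiation and 0.057 (SE 0.17, adjusted p = 0.900) without; the second was -0.12 when non-irradiated knockdown replicate 1 was left out.

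MTHFD2, the dehydrogenase of the next step, had 182, 169.6 and 156 CPM in the irradiated knockdowns, against 141, 354 and 345 CPM in the irradiated controls. Without irradiation MTHFD2 had 313, 222 and 261 CPM in the knockdowns, against 389, 393 and 390.0 CPM in the controls. The non-irradiated controls were nearly equal and stood above every knockdown. Knockdown gave MTHFD2 -0.73 (SE 0.27, adjusted p = 0.421) after irradiation and -0.56 (SE 0.27, adjusted p = 0.312) without. When irradiated control replicate 1 was left out, its value was -1.04 (SE 0.14, adjusted p = 0.00267; 0.00118 to 1 over 17 alternatives). SLC4A5 and a second gene on the other strand overlap 33.2% of its exon bases.

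ALDH1L2, which oxidises formyl-folate in mitochondria, had 4, 5 and 4 reads in the irradiated knockdowns, against 6, 19 and 17 reads in the irradiated controls. Without irradiation it had 7, 1 and 2 reads in the knockdowns, against 29, 7 and 20 reads in the controls. It was lower in the knockdown of all 6 pairs, on counts near the limit of detection. On the log2 scale ALDH1L2 stood at -1.51 (SE 0.78, adjusted p = 0.598) after irradiation and -2.78 (SE 0.80, adjusted p = 0.103) without. With the block ALDH1L2 fell by 2.76 without irradiation (SE 0.46, adjusted p = 0.00148 in edgeR; 0.00148 to 0.559 over 15 alternatives). MTHFD1L, which makes formate, had -0.43 after irradiation and -0.44 without, with its non-irradiated groups separate and no call.

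The other enzymes of amino acid and carbon metabolism split. Their medians were -0.25 after irradiation and -0.042 without, with 6 of 7 and 4 of 7 negative. ASNS, asparagine synthetase, had 175, 191 and 189 CPM in the irradiated knockdowns, against 126, 453 and 442 CPM in the irradiated controls. Without irradiation ASNS had 503, 328 and 367 CPM in the knockdowns, against 656, 665 and 621 CPM in the controls. All non-irradiated knockdowns were below their controls, and irradiated control replicate 1 was the lowest library. ASNS gave -0.88 (SE 0.36, adjusted p = 0.466) after irradiation and -0.70 (SE 0.35, adjusted p = 0.337) without. Without irradiated control replicate 1 it gave -1.27 (SE 0.15, adjusted p = 0.00147; 0.00147 to 1 over 17 alternatives). Of its 50-base words 40.6% occur in other annotated genes.

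PCK2, the mitochondrial phosphoenolpyruvate carboxykinase, had 102, 138 and 147 CPM in the irradiated knockdowns, against 83.4, 328 and 398 CPM in the irradiated controls. Without irradiation PCK2 had 539, 321 and 367 CPM in the knockdowns, against 554, 673 and 653 CPM in the controls. Again the non-irradiated groups were separate and irradiated control replicate 1 was the lowest library. Its log2 fold changes were -1.07 (SE 0.42, adjusted p = 0.446) after irradiation and -0.62 (SE 0.42, adjusted p = 0.482) without. The first was -1.50 (SE 0.21, adjusted p = 0.00448) with irradiated control replicate 1 left out, and -1.35 (adjusted p = 0.00888) without pair 1.

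GPT2, the mitochondrial alanine aminotransferase, had 185, 116 and 131 CPM in the irradiated knockdowns, against 172, 228 and 270.4 CPM in the irradiated controls. Without irradiation GPT2 had 376, 249.9 and 263 CPM in the knockdowns, against 296, 329.8 and 289 CPM in the controls. Both pairs of groups overlapped. Its log2 fold changes were -0.63 (SE 0.22, adjusted p = 0.371) after irradiation and -0.042 (SE 0.22, adjusted p = 0.948) without. The first was -0.79 (adjusted p = 0.0846) with irradiated control replicate 1 left out, and -1.02 (adjusted p = 0.0104) without pair 1.

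ALDH18A1, the first enzyme of proline synthesis, went the other way. It had 279.9, 215 and 228 CPM in the irradiated knockdowns, against 239.7, 179.7 and 193 CPM in the irradiated controls, and 172, 186 and 218 CPM in the non-irradiated knockdowns, against 140.0, 138 and 149.7 CPM in the non-irradiated controls. The knockdown was the higher library in all 6 pairs, and without irradiation the groups did not overlap. For ALDH18A1 the change (log2) was 0.24 (SE 0.14, adjusted p = 0.662) after irradiation and 0.43 (SE 0.14, adjusted p = 0.148) without. With the block ALDH18A1 rose in both states, by 0.24 after irradiation (SE 0.064, adjusted p = 0.0334; 0.0334 to 1 over 17 alternatives) and by 0.43 without (SE 0.065, adjusted p = 0.000834; 0.000834 to 0.599 over 17 alternatives). PYCR1, the last enzyme of the same route, had -0.25 and -0.053 after and without irradiation, with 29.7% of its exon bases shared with other genes.

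CBS, which joins serine to homocysteine, had 35.9, 36.8 and 39.5 CPM in the irradiated knockdowns, against 28.8, 41.3 and 48.0 CPM in the irradiated controls. Without irradiation CBS had 79.0, 79.7 and 85.3 CPM in the knockdowns, against 69.8, 76.7 and 83.4 CPM in the controls. The groups overlapped in both states. CBS had -0.074 (SE 0.16, adjusted p = 0.943) after irradiation and 0.086 (SE 0.16, adjusted p = 0.825) without, and CTH, the next enzyme, had -0.13 and 0.13. CBS shares 54.5% of its 50-base words with other genes, chiefly its near-identical copy CBSL, so the level of CBS is uncertain.

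The 4 secreted, surface and transport proteins had medians of -0.83 after irradiation and -0.30 without, and all 4 were negative in both. VLDLR, a lipoprotein receptor, had 12.2, 13.0 and 11.3 CPM in the irradiated knockdowns, against 12.8, 22.6 and 23.9 CPM in the irradiated controls. Without irradiation VLDLR had 27.3, 18.7 and 17.3 CPM in the knockdowns, against 29.9, 24.0 and 22.4 CPM in the controls. Irradiated control replicate 1 lay among the knockdowns, and the non-irradiated groups overlapped through knockdown replicate 1. On the log2 scale VLDLR stood at -0.70 (SE 0.24, adjusted p = 0.370) after irradiation and -0.27 (SE 0.24, adjusted p = 0.601) without. With the block VLDLR fell by 0.65 after irradiation (SE 0.16, adjusted p = 0.0355; 0.0327 to 1 over 17 alternatives). STC2, a secreted glycoprotein, had -0.95 after irradiation and -0.67 without; without irradiated control replicate 1 the first was -1.32 (SE 0.15, adjusted p = 0.00108; 0.000898 to 1 over 17 alternatives). INHBE, an inhibin subunit, had -1.68 and -0.17, and XPOT, the exporter of tRNA, had -0.30 and -0.33.

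Irradiated libraries held less of this pathway than non-irradiated ones in both arms. The median log2 fold change over the 33 genes was -0.77 in knockdown cells and -0.54 in control cells, and 31 and 32 of the 33 were negative. The median in control cells was -0.32 without irradiated control replicate 1. In knockdown cells 8 genes were called lower (1.4% of all genes were called lower, and 3.58% in either direction). In control cells 5 were called lower (0.878% of all genes lower, 2.26% in either direction). None of the 33 was called higher in either arm (2.18% of all genes were called higher in knockdown cells and 1.38% in control cells). The 4 genes called in both, DDIT3, TRIB3, GTPBP2 and CBS, were 50% of the list in knockdowns and 80% of that in controls. In knockdown cells 25 genes were lower without overlap of the groups and 0 higher (14.0% and 15.8% of all genes), and in control cells 20 were lower and 1, ALDH18A1, was higher (13.9% and 13.7%). Irradiation and the change of table cannot be told apart in these values. With scaling by library size alone the median of all genes stood at -0.15 in knockdowns and -0.16 in controls, against -0.0036 and -0.0041 with TMM, and the medians above are relative to TMM scaling.

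By role, the medians were lowest among the stress effectors, at -1.35 in knockdown cells and -1.15 in control cells. DDIT3 fell by 1.52 in knockdowns (SE 0.27, adjusted p = 0.0165) and by 1.71 in controls (SE 0.27, adjusted p = 0.0140). TRIB3 fell by 1.43 in knockdowns (SE 0.28, adjusted p = 0.0219) and by 1.65 in controls (SE 0.28, adjusted p = 0.0162). For both genes every irradiated library was below every non-irradiated library of the same arm. GTPBP2 fell by 1.35 in knockdowns (SE 0.31, adjusted p = 0.0373) and by 1.63 in controls (SE 0.31, adjusted p = 0.0258). FAM129A fell by 3.73 in knockdowns (SE 0.80, adjusted p = 0.0332), and in controls its value was -3.11 (SE 0.73, adjusted p = 0.0505). ATF3 fell by 1.18 in controls (SE 0.22, adjusted p = 0.0259), while in knockdowns, which were low already without irradiation, its value was -0.48 (SE 0.22, adjusted p = 0.249). ATF4 itself had -0.53 (SE 0.27, adjusted p = 0.280) in knockdowns and -0.30 (SE 0.27, adjusted p = 0.524) in controls, and ATF5 had -0.58 (SE 0.21, adjusted p = 0.146) and -0.88 (SE 0.21, adjusted p = 0.0511). The value of ATF4 in controls turned sign (0.016) without irradiated control replicate 1, and that of PSPH likewise (0.13).

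Of the serine and one-carbon enzymes, PHGDH and SHMT2 passed in knockdown cells. PHGDH fell by 1.25 (SE 0.27, adjusted p = 0.0332) and SHMT2 by 0.70 (SE 0.17, adjusted p = 0.0459), with all irradiated knockdowns below all non-irradiated ones. In controls PHGDH had -1.01 (SE 0.27, adjusted p = 0.0683) and SHMT2 had -0.40 (SE 0.17, adjusted p = 0.193). The remaining serine enzymes were not called, with -1.04 (SE 0.38, adjusted p = 0.146) in knockdowns and -0.74 (SE 0.37, adjusted p = 0.270) in controls for PSAT1 and -0.46 and -0.16 for PSPH. MTHFD2 had -0.65 in knockdowns and -0.48 in controls, and ASNS had -1.11 and -0.93.

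CBS and GPT2 were the other enzymes called. CBS fell by 1.12 in knockdowns (SE 0.16, adjusted p = 0.00517) and by 0.96 in controls (SE 0.16, adjusted p = 0.0149). GPT2 fell by 1.04 in knockdowns (SE 0.22, adjusted p = 0.0312), against -0.45 (SE 0.22, adjusted p = 0.248) in controls. All irradiated libraries lay below the non-irradiated ones of the same arm for both genes. Its copy CBSL had -1.18 in knockdowns (adjusted p = 0.0411) and -0.86 in controls (adjusted p = 0.112). ALDH18A1 had 0.32 (SE 0.14, adjusted p = 0.223) in knockdowns and 0.52 (SE 0.14, adjusted p = 0.0793) in controls.

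**Figure D5:**
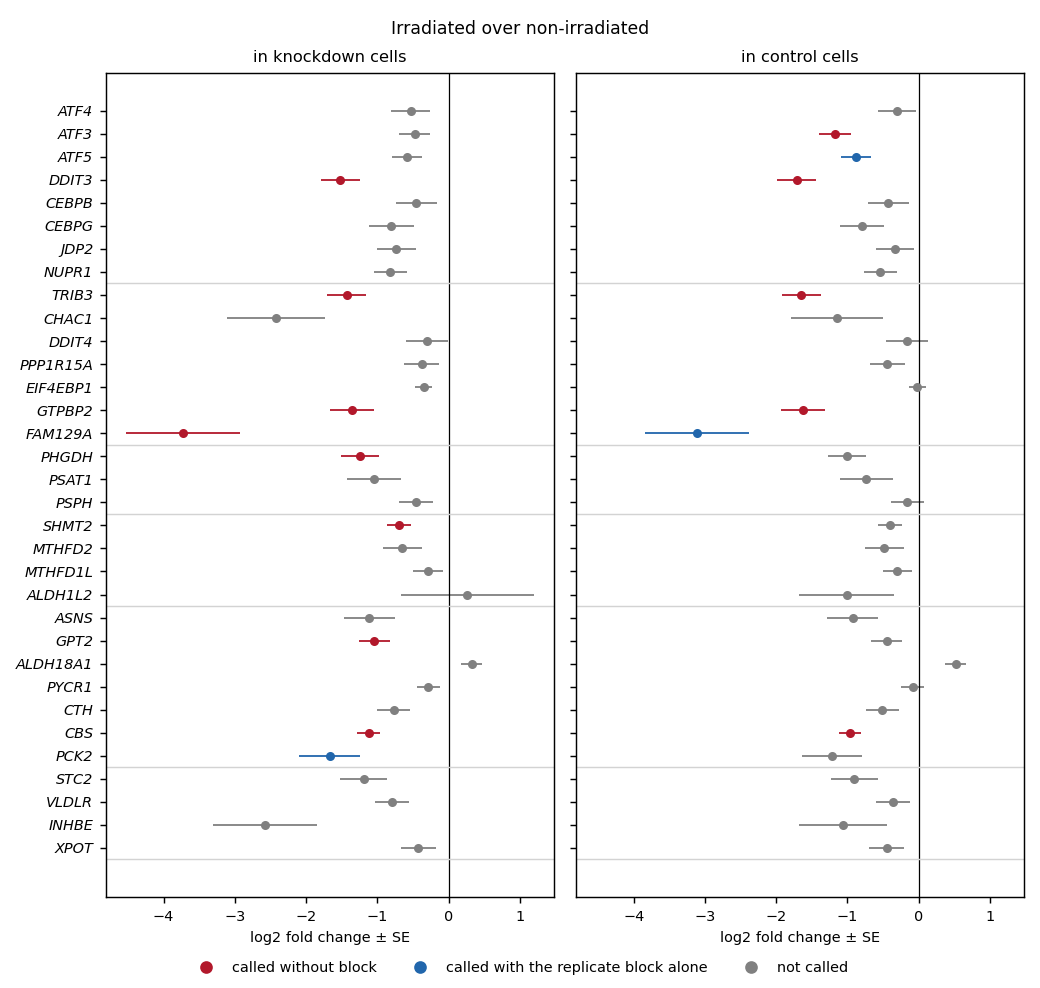
Log2 fold change of irradiated over non-irradiated libraries for each of the 33 genes, with its standard error, in knockdown cells (left) and control cells (right), coloured as for the knockdown. DDIT3, TRIB3, GTPBP2 and CBS are red in both panels, and ALDH18A1 lies above 0 in both.

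These calls rested on few libraries. In control cells 0 of the 33 were called without non-irradiated control replicate 2 or 3, where calls over all genes also dropped, to 0.221% and 0.136%. Between 4 and 6 were called without any one of the other 4 libraries (1.95% of all genes without non-irradiated control replicate 1, and 1.1%, 0.587% and 1.49% without irradiated control replicate 1, 2 and 3). In knockdown cells between 1 and 4 were called when a single library was left out, whichever it was, and CBS was called each time. The shares of all genes were then 1.58%, 0.524% and 1.24% without irradiated knockdown replicate 1, 2 and 3, and 1.23%, 0.43% and 0.786% without non-irradiated knockdown replicate 1, 2 and 3. Without irradiated control replicate 1 the 6 genes called in controls were the 5 above and FAM129A (0.413% of all genes called lower, 1.1% in either direction).

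The knockdown effect was also set against itself across irradiation states. The difference of the knockdown effects, after irradiation minus without, had a median of -0.20 over the 33 genes, against -0.0011 over all genes. This median was unstable: it was -0.11 with the block, -0.38, -0.087 and -0.021 without irradiated control replicate 1, 2 and 3, and -0.11 and -0.33 without non-irradiated knockdown replicate 1 and 2. None of the 33 was called and none of all genes (0.0%), in edgeR without and with the block and in DESeq2. At an unadjusted p under 0.05 there were 350 of all genes and 1 of the 33, ATF3 at 0.70 (unadjusted p = 0.0464, adjusted p = 1). The knockdown effects of the 2 states are therefore not shown to differ for any of these genes. The largest differences otherwise were -1.51 for INHBE, -1.28 for CHAC1 and 1.27 for ALDH1L2, none of which passed.

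Neighbouring genes of the pathway gave a mixed picture. Of 15 tested genes for the eIF2 kinases, eIF2B and the eIF2 phosphatase, 1 was called lower by the knockdown in each state and 0 higher, and the medians were 0.069 after irradiation and 0.078 without. The one was EIF2AK3, known as PERK, the kinase that phosphorylates eIF2 when proteins misfold in the endoplasmic reticulum. It had 21.7, 26.2 and 26.0 CPM in the irradiated knockdowns, against 34.1, 52.0 and 48.4 CPM in the irradiated controls, and 23.0, 25.2 and 25.2 CPM in the non-irradiated knockdowns, against 51.3, 45.1 and 51.9 CPM in the non-irradiated controls. The knockdowns were below the controls throughout, in pair 1 as in the others. EIF2AK3 fell by 0.86 after irradiation (SE 0.15, adjusted p = 0.0412) and by 1.01 without (SE 0.15, adjusted p = 0.0101). EIF2S3, the gamma subunit of eIF2, rose with irradiation by 0.42 in knockdowns (SE 0.10, adjusted p = 0.0439) and by 0.43 in controls (SE 0.10, adjusted p = 0.0485).

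The 11 amino acid transporters tested had medians of -0.61 and -0.43 for the knockdown after and without irradiation, with 0 called. With irradiation 2 of the 11 were called lower in knockdown cells and 0 in control cells. SLC1A4, a carrier of serine and other small neutral amino acids, fell by 2.40 (SE 0.44, adjusted p = 0.0170). SLC3A2, the shared heavy chain of several carriers, fell by 0.79 (SE 0.17, adjusted p = 0.0316). Of 18 cytosolic tRNA ligases 0 were called in any of the 4 comparisons, with medians of -0.21 for the knockdown in both states. The 20 other folate and one-carbon enzymes, cytosolic ones for the most part, had medians of -0.015 and 0.11 for the knockdown and 0 called in these comparisons. Of 17 unfolded protein response genes 1 was called, DNAJB9, a chaperone, which fell by 0.79 in the non-irradiated knockdowns (SE 0.16, adjusted p = 0.0330). With the block, 4 of 15 kinase and eIF2B genes, 3 of 20 folate genes, 2 of 11 transporters and 4 of 18 ligases were called without irradiation. Of the 17 unfolded protein response genes 6 were called there. After irradiation the numbers were 3, 3, 0, 0 and 3 in the same order. These shares stand beside the 27.8% and 11.5% of all genes called with the block.

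Proliferation genes also differed between the pairs. The median difference (knockdown minus control, log2) of 20 G2/M and mitosis genes was -0.71, -1.32 and -1.20 in irradiated pairs 1, 2 and 3, and -0.85, 2.88 and 2.03 in the non-irradiated pairs. For 20 DNA replication and G1/S genes it was -0.68, -0.027 and -0.013 in the irradiated pairs and 0.11, 1.29 and 1.07 in the non-irradiated pairs. By library, the replication genes had a median log2 deviation from the gene mean of 1.38 in irradiated control replicate 1 and 0.69 in irradiated knockdown replicate 1. In the other irradiated libraries it was between -0.68 and -0.51. The mitosis genes stood at -0.38, 0.65 and 0.64 in non-irradiated knockdown replicates 1, 2 and 3, and at 0.39, -2.24 and -1.37 in the controls. The libraries that stood apart for the pathway thus also differed in proliferation genes. The part of proliferation in the result was not tested.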

How the data were processed

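The authors deposited tables of raw counts per gene, 1 for the irradiated and 1 for the non-irradiated libraries, from polyA+ RNA per the labels. STAR 2.5, featureCounts of Subread 1.5.3, edgeR 3.20.8 and GRCh38 are named in the submitters' processing notes; in the sources used here, no annotation release or strand setting is given. Counts were tested as deposited with edgeR 4.0.16 (R 4.3.3), in 1 quasi-likelihood fit of the 12 libraries with TMM scaling, a mean per group and 17191 genes that passed filterByExpr (minimum count 10, minimum total 15), with Benjamini-Hochberg adjustment over all of them. The biological coefficient of variation was 0.216. Log2 CPM used a prior count of 2. Each SE, in the text and figures, is the absolute log2 fold change divided by the square root of the F statistic of its test. The fit was tested on simulated data. A count of 3 corresponds to 0.0905 to 0.203 CPM, which covers counting error only.

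Knockdown and control libraries of the same number deviated together within each table, with Pearson r of 0.775, 0.613 and 0.607 over genes for irradiated pairs 1, 2 and 3, and 0.233, 0.255 and 0.296 for non-irradiated pairs, so a fit with the replicate block is given where it changes a call. The pairing comes from these correlations, not from the labels. Irradiated libraries of unlike number also deviated together among replicates 2 and 3. The r was 0.476 for knockdown 2 with control 3 and 0.396 for knockdown 3 with control 2. The matched values of irradiated pairs 2 and 3 thus hold a part that is not particular to the number. Shared 50-base words were counted in GENCODE 29 transcripts. Exon overlaps were counted from the exon positions deposited with the counts. Promoters came from RefSeq.

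The genes, their lists and the tests were chosen with earlier results of these data known. Per-library values are given for 11 genes picked by name and for each gene called with or without the block, and ATF5 follows from the same rule for the irradiation comparisons. Alternatives were DESeq2 1.42.0, limma-voom (limma 3.58.1), other scalings and filters, the block, fits of 6 libraries and leaving out libraries.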

Additional observations from a re-analysis of the deposited data

How the results depend on the processing

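The medians over the 33 genes kept their direction under every alternative run. With single libraries left out they ran from -0.88 to -0.45 for the knockdown after irradiation, -0.57 to -0.29 without, -0.88 to -0.62 for irradiation in knockdowns, -0.74 to -0.32 in controls and -0.38 to -0.021 for the difference of the knockdown effects. The number called did not. For the knockdown without irradiation it was 1, and became 4 with DESeq2, 3 with the replicate block, 7 in a fit of the 6 libraries compared, 2 without pair 1, 0 without pair 2 or pair 3, and 0 to 2 without single libraries. For the knockdown after irradiation it was 0, and became 3 with the block, 15 without pair 1 and 0 to 16 without single libraries. For irradiation in knockdowns it was 8, and became 16 with DESeq2, 13 with 6 libraries and 1 to 4 without single libraries. For irradiation in controls it was 5, and became 8 with library size alone, 10 with DESeq2, 0 with 6 libraries and 0 to 6 without single libraries. Leaving out a pair was chosen after seeing the data. The cause of these changes was not tested.

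Counts over all genes also changed with the setting, but not always as those of the pathway did. For irradiation in knockdowns, the fit of 6 libraries called more of the pathway genes and fewer of all genes. The genes tested numbered 17191 in the main fit and with the block, and 34300 with DESeq2 or no filter. They numbered 16069 to 16365 with 6 libraries and 17518 to 17732 without single libraries. The knockdown after irradiation called 51 genes, against 250 with DESeq2, 1974 with the block, 1 with 6 libraries and 4 to 254 without single libraries. The knockdown without irradiation called 265 genes, against 1005 with DESeq2, 4776 with the block, 1486 with 6 libraries and 31 to 341 without single libraries. Irradiation in knockdowns called 615 genes, against 1367 with DESeq2, 1157 with the block, 344 with 6 libraries and 76 to 280.0 without single libraries. Irradiation in controls called 389 genes, against 614 with library size alone, 592 with no filter, 1326 with DESeq2, 965 with the block, 64 with 6 libraries and 24 to 341 without single libraries. With library size alone 224 genes were higher and 621 lower in irradiated knockdowns (374 and 241 with TMM), and 170.0 higher and 444 lower in irradiated controls (238 and 151 with TMM).

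Across tables the replicate numbers paired nothing (r of -0.15 to 0.14). The block gave 9 pathway genes called for irradiation in knockdowns and 7 in controls. Of all 17191 genes tested, it called 1157 in knockdowns and 965 in controls. Single genes turned sign only where they were not called. With single libraries left out, the knockdown effect without irradiation ran from -0.12 to 0.19 for SHMT2 (-0.16 without pair 1) and from -0.18 to 0.00059 for PSPH. The irradiation effect in controls ran from -0.52 to 0.016 for ATF4 and from -0.34 to 0.13 for PSPH. The difference of the knockdown effects ran from -0.085 to 0.38 for DDIT3, -0.012 to 0.48 for TRIB3, -0.53 to 0.023 for PHGDH, -0.67 to 0.11 for PSAT1, -0.48 to 0.033 for MTHFD2 and -0.57 to 0.073 for ASNS, which stood at 0.054 with limma-voom and 0.035 with the block. Depth limited ALDH1L2 and INHBE.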
